A study of Mus musculus with 4 samples.

Results

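Spleen type 2 conventional dendritic cells (cDC2) were described from single-cell RNA sequencing of mice carrying subcutaneous B16-F10 melanoma, a transplantable mouse skin tumour line. A barcode was counted as a cDC2 if it held at least 500 UMIs (unique molecular identifiers, each counting 1 captured transcript), at least 200 genes and at most 10% mitochondrial transcripts, and if its raw counts met a fixed rule. The rule asked for at least 1 UMI of Flt3 or Cd209a and at least 10 UMIs of H2-Ab1. It also asked for no UMI of Xcr1, Clec9a, Cd79a, C1qa, Ncr1, Cd3d, Cd3e or Cd3g and at most 1 of Siglech. It took 185 of the 6952 passing barcodes of the Ndufa4KO spleen library (KO) and 371 of the 7530 of the Wild-type spleen library (WT). The members were thus chosen by the measured UMIs of these 12 genes, whose levels are given below as a description with no test.

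Each group was 1 library. The KO library pooled spleen cells of Ndufa4KO mice, and the WT library those of Wild-type mice, in equal numbers from 3 mice per genotype per the series' design text. All were males aged 8 weeks on a C57BL/6 background, with spleens taken on day 18 after the tumour cells were implanted, so both groups came from tumour-bearing animals. Spleen cells were sorted as live single CD45+ CD11b+ cells, a gate that a CD11b-low dendritic cell could miss, and loaded for 3′ counting. The sources used here do not say which part of Ndufa4 was removed, or in which cells. With 1 pooled library per genotype no test between genotypes was possible, cells of 1 library are not replicates, and mouse-to-mouse variation cannot be told apart from genotype. Intervals in square brackets are 95% and cover counting error only.

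Conventional dendritic cells take up antigen, carry it to T cells and present it on major histocompatibility complex (MHC) molecules. They develop from precursors that depend on the receptor tyrosine kinase Flt3, and they express the transcription factor Zbtb46. The type 2 subset is known for presentation to CD4 T cells and for its need of the transcription factor Irf4. In mouse spleen it is divided into an ESAM-high population that depends on Notch2 signalling and an ESAM-low population that shares genes with monocytes. Mature dendritic cells switch on the chemokine receptor Ccr7 and the actin-bundling protein Fscn1.

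The spleen libraries held 7789 KO and 8107 WT barcodes, with 46499361 and 57272311 UMIs. The members had a median of 10224 UMIs and 3232 genes per KO cell and 12632 UMIs and 3669 genes per WT cell. In all, 1911144 KO and 4795489 WT UMIs of members were summed. The KO and WT spleen libraries shared 19 barcodes, none of them a member. Doublets were kept: Scrublet, a doublet caller, marked 195 KO and 410 WT spleen barcodes, of which 3 KO and 11 WT were members.

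The label was checked against genes that the rule did not use. Levels are in CPM, the summed UMIs of a class scaled to the same fixed total in each library. Zbtb46 stood at 67.0 CPM in KO members and 42.1 CPM in WT members, against 0.81 and 0.90 CPM in KO and WT classical monocytes of the same libraries. Kmo, kynurenine 3-monooxygenase, had 225 CPM in KO and 193.5 CPM in WT members, against 16.2 and 13.97 CPM in KO and WT classical monocytes. Clec10a, a galactose-binding lectin of cDC2, had 179 CPM in KO and 147 CPM in WT members, against 22.002 and 23.6 CPM in those monocytes. A Zbtb46 UMI was found in 43.8% of KO and 32.3% of WT members, against 0.98% of KO and 1.20% of WT classical monocytes. Kmo and Clec10a were lower in monocytes but not absent. Clec10a was found in 22.2% of KO and 25.2% of WT classical monocytes, against 35.1% of KO and 40.4% of WT members. A Kmo UMI was found in 34.8% of KO and 44.1% of WT B cells, against 63.8% of KO and 62.3% of WT members. The B cells held fewer UMIs than the members, with medians of 6382 per KO cell and 7542 per WT cell. Kmo was thus not specific to cDC2. Lyz2, lysozyme of myeloid cells, was also present, at 2975 CPM in KO and 3134 CPM in WT members, below the 13302 and 11820 CPM of KO and WT classical monocytes. Cadm1, an adhesion molecule of type 1 dendritic cells, had 2 UMIs in all KO and 21 in all WT members.

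**Figure D1:**
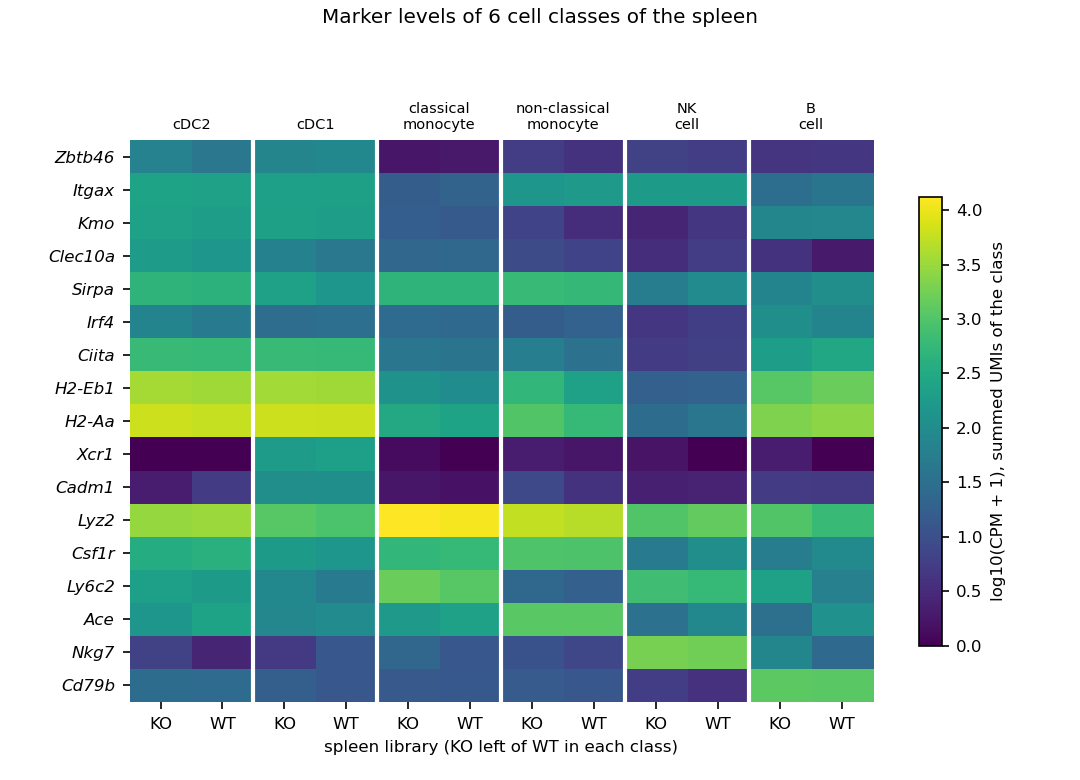
Levels of 17 marker genes (rows) in 6 cell classes of the spleen, with the KO library left of the WT library in each class; colour gives log10(CPM + 1) of the summed UMIs of the class. The cDC2 columns share high H2-Aa, H2-Eb1 and Ciita with type 1 dendritic cells, lack Xcr1 by rule and carry Lyz2 below the monocyte columns. B cells carry MHC class II transcripts too. The MHC class II list described below summed to 11651 CPM in KO and 13249 CPM in WT B cells, against 27987 and 25580 CPM in cDC2.

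The 20 genes that stood highest in the members against all other spleen barcodes, leaving out the rule's own genes, were named by the size of that ratio. Ppp1r14a, an inhibitor of myosin phosphatase, led them at 4.58 on the log2 scale, with 36.6 CPM in KO and 31.3 CPM in WT members. Behind it came Ube2e2, a ubiquitin-conjugating enzyme, Ctnnd2, a catenin, and Ccnd1, the D-type cyclin of G1. The receptor genes among them were Ddr1, a collagen receptor, Fgfr1, a fibroblast growth factor receptor, and Ffar2, a receptor for short-chain fatty acids. The remaining names were Adam23, H2-M2, Spint1, H2-Eb2, Tbc1d4, St8sia1, Clec10a, Hap1, H2-Eb1, Bex6, H2-Aa, Kmo and Ciita, the last of these at 3.15 on the log2 scale. These levels describe the cells the rule took and test nothing. Between the genotypes, Ccnd1 stood at 683 CPM in KO and 379 CPM in WT members, Adam23 at 223 and 129 CPM, and H2-M2, a non-classical MHC class I gene, at 53.4 and 20.4 CPM. Ddr1 ran the other way, at 85.8 CPM in KO and 128 CPM in WT members.

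The genes of the rule were close between the genotypes. Flt3 had 352 CPM in KO and 384 CPM in WT members and was found in 175 of 185 KO and 356 of 371 WT cells. Cd209a, a DC-SIGN-family lectin, had 578 CPM in KO and 474 CPM in WT members and was found in 103 KO cells (55.7%) and 197 WT cells (53.1%). H2-Ab1, the beta chain of the MHC class II molecule I-A, had 4878 CPM in KO and 4340 CPM in WT members. Its median was 47 UMIs per KO cell and 51 per WT cell, not scaled for depth. Just inside the threshold lay 31 KO and 64 WT cells with a summed Flt3 and Cd209a count of 1, and 21 KO and 26 WT cells with 10 to 14 H2-Ab1 UMIs. Just outside lay 87 KO and 154 WT cells that met every other condition with no UMI of Flt3 or Cd209a, and 14 KO and 44 WT cells with 5 to 9 H2-Ab1 UMIs.

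Cells on the 2 sides of the first threshold carried more monocyte transcripts than the rest. In members with a sum of 1, Lyz2 stood at 5671 CPM in KO and 6488 CPM in WT cells, against 2478 CPM in KO and 2480 CPM in WT members with a sum of 2 or more. In the cells just outside it stood at 6241 CPM in KO and 6367 CPM in WT cells. Kmo had 40.4 CPM in KO and 24.3 CPM in WT members with a sum of 1, and 259 CPM in KO and 227 CPM in WT members with 2 or more. Just outside, Kmo had 17.1 CPM in KO and 11.0 CPM in WT cells. The cDC2 label therefore held best for the members with at least 2 UMIs, and the members with 1 UMI lay between these and the cells outside. Members with 1 UMI made up 16.8% of KO and 17.3% of WT members. At the other threshold, members with 10 to 14 H2-Ab1 UMIs (11.4% of KO and 7.01% of WT members) had 7830 CPM of Lyz2 in KO and 6633 CPM in WT cells. The classical monocyte list summed to 5110 CPM in KO and 5016 CPM in WT cells of that kind, against 2923 CPM in KO and 3352 CPM in WT members with a sum of 1. These members were thus the more monocyte-like of both border groups.

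**Figure D2:**
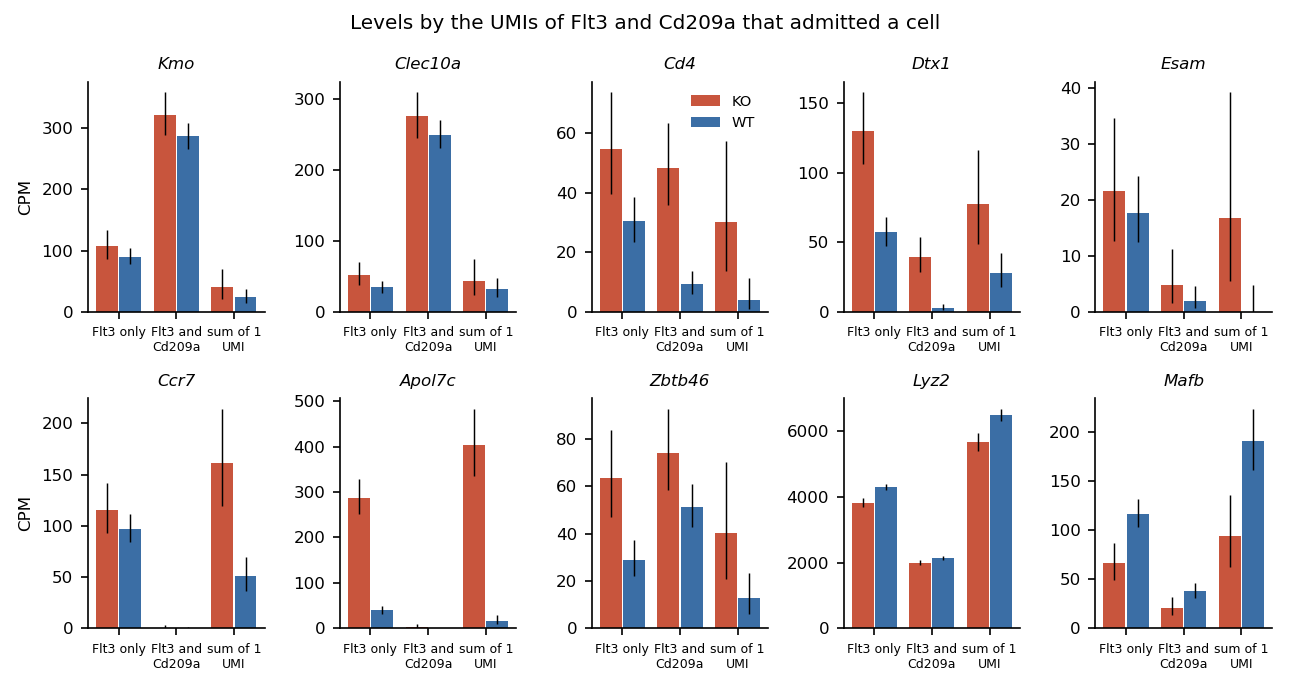
Levels of 10 genes (CPM, axes from 0) in members with Flt3 only, with both Flt3 and Cd209a, and with a summed count of 1 (a stratum that overlaps the first), KO bars left of WT bars; lines are exact Poisson 95% intervals of the summed UMIs. Kmo and Clec10a were highest in the cells with both genes, Ccr7 and Apol7c were near 0 there, and Lyz2 was highest in the cells with a sum of 1.

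The question put first was the deleted gene. Ndufa4 (chr6:11900292-11907497, GRCm38), which encodes a subunit of mitochondrial complex IV, had 6 UMIs in the KO members and 1165 UMIs in the WT members. That is 3.14 CPM in KO and 243 CPM in WT members, a log2 ratio of −6.27 [−7.72, −5.15]. The 6 UMIs lay in 1 KO cell, while 328 of 371 WT cells held at least 1. That KO cell had 9612 UMIs, with 4 of Flt3, 2 of Cd209a and 43 of H2-Ab1 and none of Ppfia4, a gene described below that stood high in KO cells. The libraries thus followed their genotype labels in these cells. Of the paralogs, Ndufa4l2 was at 0 in both libraries, and AA467197 had 16 UMIs in KO and 6 UMIs in WT members, too few to be measured under the minimum used below.

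cDC2 made up a smaller share of the KO spleen library than of the WT library. They were 2.66% [2.30, 3.07] of KO and 4.93% [4.45, 5.44] of WT barcodes, a difference of −2.27 percentage points [−2.89, −1.65]. With neutrophils, barcodes with at least 20 UMIs of S100a8 and S100a9 together, left out of the denominator the shares were 3.58% in KO and 7.06% in WT. Type 1 dendritic cells, taken by a matching rule, were 1.14% in KO and 1.14% in WT, so cDC2 formed 70.1% of conventional dendritic cells in KO and 81.2% in WT, a difference of −11.1 points [−17.8, −4.64]. Other classes of the sort differed too: NK cells were 33.5% in KO and 15.7% in WT, and non-classical monocytes were 5.81% in KO and 15.2% in WT. Shares of a sorted library depend on each other and on the gate, and their part in the cDC2 share was not tested. In the tumour libraries of the same genotypes, the same rule took 85 KO cells (1.83%) and 102 WT cells (2.54%). The titles of the tumour libraries name CD45 and not CD11b, so their sort differed from that of the spleen. Their shares thus have another kind of denominator than the spleen shares.

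Gene levels were compared over 8854 measured genes, those with at least 50 UMIs over both groups of members and no place in the rule. Of these, 411 (4.64%) stood 1.5-fold or more above WT in the KO members and 437 (4.94%) 1.5-fold or more below, and the median log2 ratio of KO over WT was −0.03. With every cell thinned to 2000 UMIs the counts were 144 higher and 293 lower, and with the cell richest in each gene left out of each library they were 321 and 634. The counting interval lay wholly past 1.5-fold for 55 of the higher and 38 of the lower genes. "Past 1.5-fold" below refers to this size alone. Counts over each list below are to be set beside the shares of all measured genes, 4.64% higher and 4.94% lower. Some lists lie near these shares. The minimum left 56 of the 62 genes listed for the type I interferon response, 26 of 40 for type II, 13 of 14 for MHC class II, 7 of 10 for migratory dendritic cells and 9 of 21 cytokines, so counts over a list leave out its genes of lowest level.

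Transcripts of MHC class II presentation, the defining function of the subset, differed little between KO and WT members. The rule asked every member for at least 10 H2-Ab1 UMIs, so cells low in MHC class II were left out of both libraries. Closeness of these levels was thus partly set by the rule and gives no result about the function. Among 13 measured genes of the list, 1 was past 1.5-fold higher and none lower, and the median log2 ratio was 0.13. H2-Aa, the alpha chain of I-A, had 6424 CPM in KO and 5873 CPM in WT members (log2 0.13 [0.10, 0.16]). H2-Eb1, the beta chain of I-E, had 3740 CPM in KO and 3415 CPM in WT members (0.13 [0.09, 0.17]). H2-DMb2, a chain of the peptide-loading molecule, had 166 CPM in KO and 138 CPM in WT members (0.27 [0.07, 0.46]). Ciita, the coactivator that switches on these genes, had 611 CPM in KO and 577 CPM in WT members. The gene past the threshold was H2-Eb2, at 145 CPM in KO and 81.3 CPM in WT members (0.84 [0.61, 1.06]). The lysosomal thiol reductase Ifi30, at 1009 CPM in KO and 1166 CPM in WT members (−0.21 [−0.28, −0.13]), was the lowest of the list. On MHC class I, 2 of 24 measured genes were past 1.5-fold higher and none lower, with a median of 0.08. They were Tapbpl, a peptide editor, at 48.1 CPM in KO and 31.9 CPM in WT members, and H2-Q6, at 43.4 and 25.2 CPM. H2-Q6 and its near-identical neighbour H2-Q7 can share reads and are uncertain, and H2-Q6 stood at 0.36 in members with a summed Flt3 and Cd209a count of at least 2.

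MHC class II promoters are shown because high H2-Ab1, of the same gene family, was part of the rule and H2-Aa and H2-Eb1 were among the genes that stood highest in the members. MHC class II promoters carry a conserved module that includes the Y box, bound by the factor NF-Y. The 120 bases before the start of 3 genes are given below from RefSeq (GRCm38.p6), read 5′ to 3′ on the strand of the gene, with capitals for the Y box core ATTGG or its reverse complement CCAAT.
H2-Aa promoter (chr17:34287824-34287943, minus strand): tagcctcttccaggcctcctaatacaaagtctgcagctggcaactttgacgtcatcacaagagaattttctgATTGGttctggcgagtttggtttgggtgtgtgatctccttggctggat
H2-Eb1 promoter (chr17:34305747-34305866, plus strand): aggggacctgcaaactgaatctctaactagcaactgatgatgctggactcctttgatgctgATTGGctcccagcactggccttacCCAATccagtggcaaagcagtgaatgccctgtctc
H2-DMb2 promoter (chr17:34145129-34145248, plus strand): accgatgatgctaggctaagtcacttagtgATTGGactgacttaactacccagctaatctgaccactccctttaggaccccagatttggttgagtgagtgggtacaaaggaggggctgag
The core began 48 bases before the start of H2-Aa, 59 bases before that of H2-Eb1, which held 2 matches, and 90 bases before that of H2-DMb2. Searched on both strands, it was found in 7 of the 11 promoter windows of the list (63.6%) and in 6994 of 32851 windows of the same length over all genes (21.3%). A match of 5 letters is a description and not a bound site.

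Of the cDC2 marker list, 1 of 6 measured genes was past 1.5-fold higher and none lower, with a median of 0.25. Mgl2, a lectin paired with Clec10a in the genome, had 39.2 CPM in KO and 16.3 CPM in WT members (1.27 [0.79, 1.75]), from 14 KO and 30 WT cells. Kmo (0.22), Clec10a (0.29), Sirpa, an inhibitory receptor that binds CD47 (0.11), and Irf4 (0.49) stayed under the threshold. Irf4 had 72.7 CPM in KO and 51.7 CPM in WT members. Zbtb46 was past it, at a log2 ratio of 0.67 [0.34, 1.00], the 1 gene of 6 measured in the conventional dendritic cell list. Its ratio was 0.39 [−0.02, 0.80] in members with a Cd209a UMI and 1.14 [0.57, 1.70] in members without. Bcl11a, a transcription factor needed early in the lineage, had 642 CPM in KO and 503 CPM in WT members (0.35 [0.25, 0.45]).

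Of the 5 measured genes of the ESAM-high population, Cd4 and Dtx1 were past 1.5-fold higher in KO and none was lower. Cd4, the coreceptor that this population carries in mouse, had 93 UMIs in KO and 90 UMIs in WT members, or 48.7 CPM in KO and 18.8 CPM in WT (1.37 [0.94, 1.81]). Dtx1, a ubiquitin ligase of the Notch pathway, had 74.8 CPM in KO and 27.1 CPM in WT members (1.46 [1.11, 1.82]). Esam, the adhesion molecule that names the population, had 12.04 CPM in KO and 8.97 CPM in WT members (0.42 [−0.37, 1.19]), and Clec4a4, the antigen of the 33D1 antibody, 14.1 and 14.8 CPM. Notch2, the receptor itself, had 120 CPM in KO and 149 CPM in WT members (−0.31 [−0.53, −0.09]), and Rbpj, its nuclear partner, stood at a log2 ratio of −0.05. Dtx1 was the 1 gene of 15 measured in the Notch pathway past 1.5-fold. So Cd4 and Dtx1 were higher while Esam, Clec4a4 and the Notch receptor genes were not past the threshold.

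Counted in cells, 65 of 185 KO members (35.1%) and 97 of 371 WT members (26.1%) held a UMI of Cd4, Esam, Dtx1 or Clec4a4. With each cell thinned to 2000 UMIs, the shares were 22.2% in KO and 11.9% in WT members, leaving out 2 WT cells of lower depth. In NK cells, which should lack these genes, the thinned shares were 2.18% in KO and 1.80% in WT. In B cells, however, they were 16.8% in KO and 17.1% in WT, nearly all from Dtx1 (16.5% and 17.1%). The set was therefore not specific to cDC2. B cells were 4.46% of KO and 2.80% of WT barcodes, and the part of their Dtx1 in the members was not tested. Cd4 alone was found in 21.6% of KO and 10.2% of WT members, and after thinning in 10.8% and 4.07%. NK cells, at median depths of 4124 UMIs in KO and 4381 UMIs in WT, had a Cd4 UMI in 0.43% of KO and 0.51% of WT cells. A UMI of Clec10a or Mgl2 was found in 36.2% of KO and 41.0% of WT members, and after thinning in 19.5% and 18.97%, against 0.17% in KO and 0.17% in WT NK cells. Both kinds of marker were found in 3 KO and 8 WT cells only, so the sets marked largely separate members in both genotypes, before allowing for depth.

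The ratios of Cd4 and Dtx1 were largest in members that held Cd209a, 103 KO and 197 WT cells. There Cd4 had 50 UMIs in KO and 25 UMIs in WT cells, a log2 ratio of 2.24 [1.52, 2.99], and Dtx1 had 41 and 8 UMIs, a ratio of 3.60 [2.48, 4.90]. Tbx21, a T-box factor, had 17 UMIs in KO and 3 UMIs in WT cells of this kind, and 4 UMIs in KO and 21 UMIs in WT members without Cd209a. In members without Cd209a, 82 KO and 174 WT cells, the ratio was 0.85 [0.26, 1.43] for Cd4 and 1.19 [0.79, 1.58] for Dtx1. Kmo and Clec10a, by contrast, were close between the genotypes in Cd209a-positive members, at 0.15 and 0.18. Among Cd209a-positive members, 27.2% of KO and 14.7% of WT cells held a UMI of Cd4, Esam, Dtx1 or Clec4a4. The UMIs came from few cells: 21 KO and 10 WT cells for Cd4, and 14 KO and 4 WT cells for Dtx1. The split by Cd209a was chosen after the values were seen.

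Mature dendritic cells formed a small group among the members. At least 2 of Ccr7, Fscn1, Apol7c and Cacnb3 were found in 14 KO cells (7.57%) and 26 WT cells (7.01%), none of which held Cd209a. Of the migratory dendritic cell list, 4 of 7 measured genes were past 1.5-fold higher in KO and none lower, with a median of 1.41. The 4 were Apol7c, Cacnb3, Socs2 and Ccl5, and the median was the ratio of Ccl5 itself. Most NK cells carry Ccl5 and were more common in the KO library, as described below. Ccr7 had 47.6 CPM in KO and 43.4 CPM in WT members (0.13 [−0.24, 0.50]), and Il4i1, an amino acid oxidase, 100.5 and 84.7 CPM (0.25). Apol7c (chr15:77524852-77533316, GRCm38), an apolipoprotein L family gene of activated dendritic cells, had 229 UMIs in KO and 87 UMIs in WT members, or 119.8 CPM in KO and 18.1 CPM in WT (2.72 [2.36, 3.097]). The UMIs came from 13 KO and 14 WT cells. Cacnb3, a calcium channel subunit, had 41 UMIs in KO and 24 UMIs in WT members (2.10 [1.34, 2.89]). Socs2, a suppressor of cytokine signalling, had 79 UMIs in KO and 55 UMIs in WT members (1.85 [1.33, 2.37]). Ccr7 was thus similar in the members of both libraries, while Apol7c, Cacnb3 and Socs2 were higher in KO. Cells holding these 3 genes were also more common in KO. Apol7c was found in 7.03% of KO and 3.77% of WT members, Cacnb3 in 6.49% and 3.77%, and Socs2 in 7.03% and 3.50%.

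Within the 14 KO and 23 WT members that held both Ccr7 and Fscn1, a group chosen after the values were seen, Apol7c stood at 2091 CPM in KO and 414 CPM in WT cells (2.34 [1.96, 2.73]). Cacnb3 had a log2 ratio of 1.78 there and Socs2 of 1.61. Relb, an NF-kappaB subunit of mature dendritic cells (0.12), Cd274, encoding PD-L1 (0.22), and H2-Aa (−0.15) were close, and Cd83, a maturation marker, had a ratio of −0.68. Kmo had no UMI in the KO and 8 UMIs in the WT cells of this group. Lyz2 had 1 UMI in the KO and 258 UMIs in the WT cells, so the WT group also held monocyte transcripts. The part of that difference in the ratios was not tested. In type 1 dendritic cells of the spleen, Apol7c had 128 CPM in KO and 36.8 CPM in WT (1.80). In the tumour cells taken by the same rule it had 3 UMIs in KO and 76 UMIs in WT, or 1.996 and 37.4 CPM.

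Costimulatory genes and checkpoint ligands had 3 of 15 measured genes past 1.5-fold higher and none lower, with a median of −0.07. Those 3 were Pdcd1lg2, encoding PD-L2, at 12.6 CPM in KO and 5.63 CPM in WT members (1.16 [0.30, 2.01]), Cd80, a ligand of CD28, at 26.7 and 15.8 CPM (0.75 [0.21, 1.28]), and Cd274, at 68.5 and 43.6 CPM (0.65 [0.33, 0.98]). Cd86, the other ligand of CD28, had 32.4 CPM in KO and 28.1 CPM in WT members (0.20), and Cd40, the receptor for T cell help, 52.3 and 42.1 CPM (0.31). Cd83 had 51.3 CPM in KO and 71.3 CPM in WT members (−0.48). Cd80 and Cd274 were under the threshold in members with a summed Flt3 and Cd209a count of at least 2, at 0.50 and 0.54, and at 5% mitochondrial UMIs, at 0.35 and 0.41.

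Interferon response genes were close between the genotypes as a list. Of 56 measured type I genes, 5 were past 1.5-fold higher and 1 lower, and the median was 0.03 on the log2 scale, whose sign turned under several alternatives given in the closing section. Ifit2 and Ifit1, antiviral RNA-binding proteins, had 46.6 CPM in KO and 19.6 CPM in WT members (1.25 [0.81, 1.68]) and 27.7 and 14.6 CPM (0.93 [0.38, 1.46]). Ifit1bl1, of the same family, had 26 UMIs in KO and 27 UMIs in WT members (1.27 [0.44, 2.10]). Rsad2, the antiviral enzyme viperin, had 58.1 CPM in KO and 38.2 CPM in WT members (0.61 [0.25, 0.95]), and Ifi205, a sensor-family gene, 22.5 and 13.8 CPM (0.71). Oas1a, an RNA-sensing synthetase, had 17.3 CPM in KO and 33.4 CPM in WT members (−0.95 [−1.54, −0.40]). Isg15, a ubiquitin-like modifier, lay under the threshold at 36.1 CPM in KO and 24.8 CPM in WT members (0.54), as did the factor Irf7 (0.23). Rsad2 stood at 0.35 in members with a summed Flt3 and Cd209a count of at least 2, and Ifi205 at 0.26 with at most 5% mitochondrial UMIs and −0.50 in Cd209a-positive members. Ifit1, Ifit2 and Ifit1bl1 were thus higher without the list as a whole being so.

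Of 26 measured type II interferon genes, 4 were past 1.5-fold higher and none lower, with a median of 0.10. They were Ccl5, Cxcl10, a chemokine for CXCR3-positive cells, Gbp8, a guanylate-binding protein, and Cd274. Cxcl10 had 28 UMIs in KO and 38 UMIs in WT members (0.89 [0.13, 1.63]), and its ratio was −0.90 when the H2-Ab1 threshold was set at 5. Gbp8 stood at 0.79 [0.23, 1.35], and at 0.27 in members with a summed Flt3 and Cd209a count of at least 2. In the tumour cells taken by the same rule, 31 of 58 measured type I genes and 19 of 34 type II genes were past 1.5-fold higher and none lower, with medians of 0.60 and 0.68, where 6.41% of all genes were called higher and 7.39% lower. The sorts of the organs differed, as given above, and the difference between spleen and tumour was not tested.

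Ccl5, a chemokine for T cells and NK cells, had 201 CPM in KO and 75.7 CPM in WT members (1.41 [1.20, 1.62]). It was found in 40.0% of KO and 28.6% of WT members, and after thinning in 24.3% of KO and 9.49% of WT members. NK cells, which carry Ccl5 in 96.7% of KO and 93.8% of WT cells, were more common in the KO library. B cells, which should lack the gene and had median depths of 6382 UMIs in KO and 7542 UMIs in WT, held a Ccl5 UMI in 19.4% of KO and 9.48% of WT cells, and after thinning in 10.3% and 3.32%. Classical monocytes had thinned shares of 2.76% in KO and 3.34% in WT. Ccl5 in B cells was thus higher in KO, that in classical monocytes was close, and the part of other cells' Ccl5 in the result was not tested. Of the 5 measured chemokines, 3 were past 1.5-fold higher and none lower. Cxcl16, a membrane-bound chemokine, had 76.9 CPM in KO and 42.1 CPM in WT members (0.87 [0.55, 1.18]), but 0.36 in members with a summed Flt3 and Cd209a count of at least 2 and −0.13 in Cd209a-positive members. Ccl6 (−0.54) and Ccl9 (−0.44) stayed under the threshold. Of 9 measured cytokines, 2 were lower and none higher. Il1b had 108 CPM in KO and 172 CPM in WT members (−0.67 [−0.89, −0.44]). Il1rn, the antagonist of the same receptor, had 9.42 CPM in KO and 22.3 CPM in WT members (−1.24 [−2.05, −0.52]).

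Transcription factors of dendritic cells were mostly close, with 2 of 26 past 1.5-fold higher and 2 lower. Zfp366, which encodes DC-SCRIPT, had 99.9 CPM in KO and 56.1 CPM in WT members (0.83 [0.56, 1.11]), and Zbtb46 is given above. Neither Zfp366 nor Zbtb46 stayed past 1.5-fold under every alternative setting. Cebpb, a factor of monocytes and macrophages, had 155 CPM in KO and 264 CPM in WT members (−0.77 [−0.96, −0.58]), and Nfil3, a bZIP repressor, 11.5 and 21.5 CPM (−0.90 [−1.64, −0.23]). Klf4, a factor of the ESAM-low population and of monocytes, had 197 CPM in KO and 265 CPM in WT members (−0.43 [−0.60, −0.26]). The list thus held as many factors lower as higher. In members with a summed Flt3 and Cd209a count of at least 2, Cebpb stood at −0.47. Monocyte markers are set beside these values below.

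Of 11 measured glucocorticoid-responsive genes, 4 were past 1.5-fold lower in KO and none higher, with a median of −0.41. Fkbp5, a co-chaperone of the glucocorticoid receptor, had 38.7 CPM in KO and 143 CPM in WT members (−1.88 [−2.25, −1.54]), from 50 KO and 233 WT cells. Zbtb16, a zinc-finger repressor, had 9 UMIs in KO and 90 UMIs in WT members (−1.99 [−3.17, −1.01]). Klf9 had 13.6 CPM in KO and 32.5 CPM in WT members (−1.26 [−1.92, −0.65]), and Ddit4, an inhibitor of mTORC1, 120 and 185 CPM (−0.62 [−0.84, −0.41]; −0.53 with equal weight per cell). Tsc22d3, which encodes GILZ, had 245 CPM in KO and 325 CPM in WT members (−0.41), under the threshold. The same list had medians between −0.58 in NK cells and −0.12 in type 1 dendritic cells, so its median was below 0 in all 6 spleen classes and not in cDC2 alone. Fkbp5 itself had log2 ratios between −2.29 in non-classical monocytes and −0.70 in NK cells.

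Immediate early genes respond within minutes to stimuli and to tissue handling. Of 23 measured, 7 were past 1.5-fold lower and 1 higher, and the median was −0.28. Egr3 had 6 UMIs in KO and 49 UMIs in WT members (−1.70 [−3.22, −0.48]), and Ier3 had 13 and 101 UMIs (−1.63 [−2.59, −0.79]). Fos had 78.0 CPM in KO and 119 CPM in WT members (−0.61 [−0.88, −0.35]), and Nr4a1 106 and 163 CPM (−0.62 [−0.85, −0.40]). The 1 higher gene was Dusp2, a MAP kinase phosphatase, at 48.1 CPM in KO and 31.5 CPM in WT members (0.61). Among 11 measured heat shock genes, 3 were lower and 1 higher. Hspa1a, an inducible HSP70, had 16.2 CPM in KO and 40.0 CPM in WT members (−1.30 [−1.90, −0.75]), and Hspa1b 36.6 and 56.9 CPM (−0.64). Hsph1, an HSP110 chaperone, was higher at 45.0 CPM in KO and 29.0 CPM in WT members (0.63). Socs3, a feedback inhibitor of cytokine receptors, had 15.2 CPM in KO and 39.8 CPM in WT members (−1.39 [−2.01, −0.82]). With cells thinned to 2000 UMIs, Fos stood at −0.33, Nr4a1 at −0.52 and Hspa1b at −0.30, and Dusp2 stood at −0.084 in Cd209a-positive members. The labels give the same handling for both genotypes, and its part in these values was not tested.

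Of 26 measured cell cycle genes, 9 were past 1.5-fold higher and 1 lower, and the median was 0.34. Rrm2, a ribonucleotide reductase subunit, had 51 UMIs in KO and 31 UMIs in WT members (2.05 [1.37, 2.74]). Hist1h1b, a linker histone of S phase, had 65.4 CPM in KO and 29.8 CPM in WT members (1.13 [0.78, 1.49]), and Mcm5, a helicase subunit, 34.5 and 17.7 CPM (0.96 [0.48, 1.44]). Ccnd1 had a ratio of 0.85 [0.75, 0.95]. Top2a, a topoisomerase of dividing cells, had 119 CPM in KO and 84.0 CPM in WT members (0.51), under the threshold. Cdkn1a, the cycle inhibitor p21, was lower at 23.02 CPM in KO and 37.3 CPM in WT members (−0.70 [−1.21, −0.21]). A UMI of Mki67 or Top2a was found in 37 of 185 KO and 67 of 371 WT members, and after thinning in 8.65% of KO and 7.32% of WT members. NK cells, some of which divide too, had thinned shares of 5.01% in KO and 4.37% in WT. Among the members, the shares of cells holding Mki67 or Top2a were thus close. Rrm2, by contrast, was found in 12 KO cells (6.49%) and 6 WT cells (1.62%). In Cd209a-positive members Top2a had 106 UMIs in KO and 17 UMIs in WT cells, from 10 KO and 13 WT cells. In members without Cd209a it had 122 UMIs in KO and 386 UMIs in WT cells (−0.22 [−0.52, 0.081]), and Mki67, a marker of dividing cells, had 94 and 440 UMIs (−0.78 [−1.12, −0.46]), so the direction was not shared by both kinds of member. In the other spleen classes the list had medians of 1.48 in classical monocytes, 0.31 in type 1 dendritic cells, 0.01 in B cells, −0.07 in NK cells and −0.23 in non-classical monocytes.

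The respiratory chain beyond Ndufa4 was close between the genotypes. Among measured nuclear genes, complex I had 36 with a median log2 ratio of −0.09, complex II had 4 with −0.13, complex III had 9 with −0.03, complex IV had 12 with −0.14 and complex V had 17 with −0.12. None of these genes was past 1.5-fold in either direction. Cox4i1, a core nuclear subunit of complex IV, had 713 CPM in KO and 676 CPM in WT members (0.08 [−0.02, 0.17]), and Cox7c had 415 and 495 CPM (−0.25 [−0.37, −0.14]). The 13 mitochondrially encoded genes had a median of 0.02. Of 18 complex IV assembly genes, 1 was higher and 2 lower: Sco1, a copper chaperone, had 26 UMIs in KO and 39 UMIs in WT members, Sco2 had 12 and 49, and Cox10, which makes haem for the complex, 15 and 61. The counting intervals of all 3 included 0. The 76 ribosomal protein genes had a median of 0.05, with none past 1.5-fold.

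**Figure D3:**
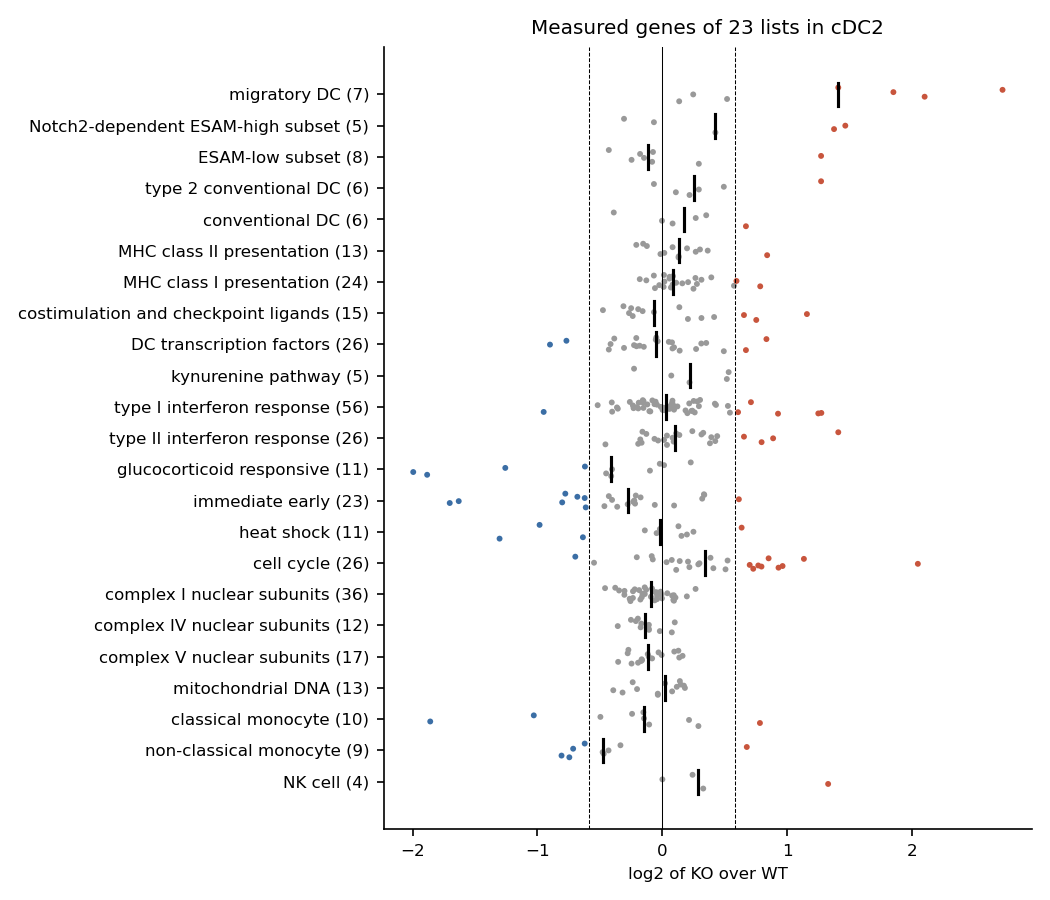
Log2 ratio of KO over WT of each measured gene (points) in 23 lists, with the list median as a black bar and the number of measured genes in brackets; red and blue points lie past 1.5-fold (dashed lines). The glucocorticoid and immediate early lists lie to the left, with medians of −0.41 and −0.28. The migratory dendritic cell list has a median of 1.41, which is the ratio of Ccl5.

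Surface lectins and receptors gave shorter lists of differences. Of 16 measured uptake lectins and scavenger receptors, 2 were higher and 3 lower. Clec4e, the mycolate receptor Mincle, had 10 UMIs in KO and 99 UMIs in WT members (−1.98 [−3.08, −1.04]), and Cd36, a lipid scavenger receptor, 17 and 95 UMIs (−1.16 [−1.99, −0.40]). Ly75, which encodes DEC-205, had 22 UMIs in KO and 30 UMIs in WT members (0.88 [0.02, 1.72]). With equal weight per cell Ly75 stood at 0.18, and in members with a summed Flt3 and Cd209a count of at least 2 Cd36 stood at −0.41. Of 23 measured pattern recognition and inflammasome genes, 2 were lower and none higher. Tlr8, an endosomal RNA sensor, had 11 UMIs in KO and 55 UMIs in WT members (−0.99), and Irak3, an inhibitor of Toll-like receptor signalling, 29 and 140 UMIs (−0.94 [−1.57, −0.36]). None of 18 nucleic acid sensing genes was past 1.5-fold. Of 21 growth factor and cytokine receptors, Il15ra, which presents IL-15 to NK and T cells, was the 1 past the threshold, at 18.8 CPM in KO and 8.97 CPM in WT members (1.07 [0.39, 1.74]).

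The largest ratios were found in single genes. Ppfia4 (chr1:134296783-134332928, GRCm38), a liprin scaffold gene, had 276 UMIs in KO and 14 UMIs in WT members, or 144 CPM in KO and 2.92 CPM in WT (5.63 [4.86, 6.52]). It was found in 119 KO and 11 WT cells. It was as clear in other classes, at 134 CPM in KO and 2.26 CPM in WT type 1 dendritic cells and 87.2 CPM in KO and 0.40 CPM in WT classical monocytes. Hoxa7, a homeobox gene, had 34 UMIs in KO and 17 UMIs in WT members (2.33). Klra8, an NK cell receptor, had 49 UMIs in KO and 33 UMIs in WT members (1.90) and stood at 1237 CPM in KO and 1442 CPM in WT NK cells. On the lower side, Ctse, the protease cathepsin E, had 27 UMIs in KO and 280 UMIs in WT members (−2.05 [−2.67, −1.48]), and its ratio lay between −2.55 and −1.70 over the 6 spleen classes. The pseudogene Gm10076 (−1.49) was lower too, but it can share reads with copies and is uncertain. Gda, guanine deaminase, had 208 UMIs in KO and 1280 UMIs in WT members (−1.29), and Tppp3, a tubulin-binding protein, 244 and 1308 UMIs (−1.10).

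**Figure D4:**
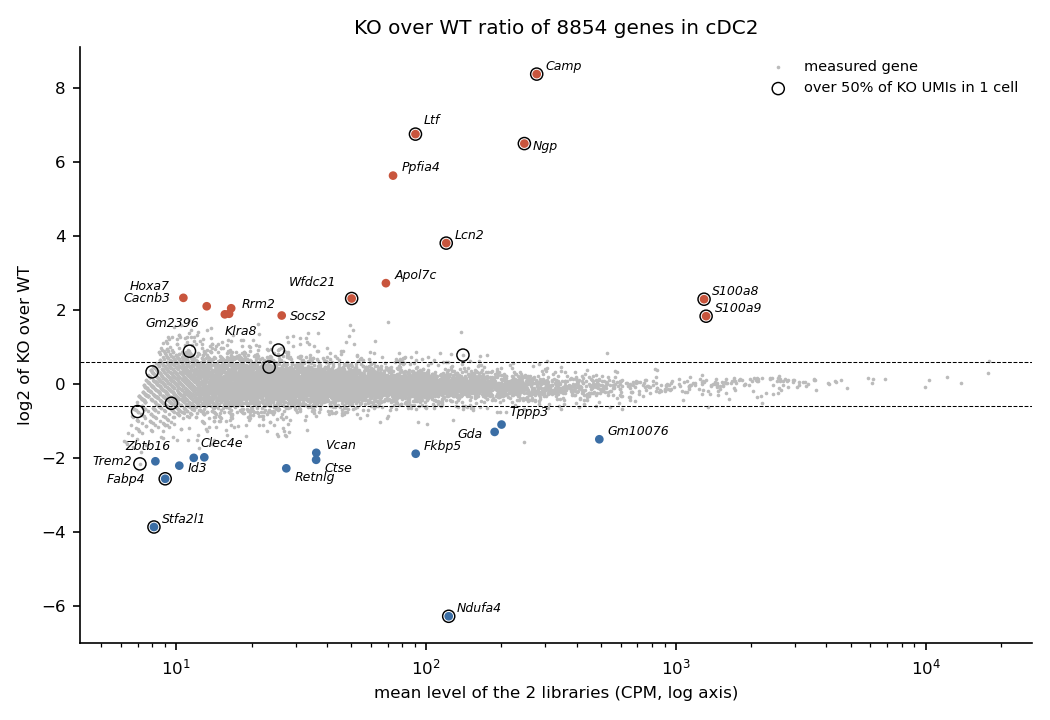
Log2 ratio of KO over WT of 8854 genes (grey points) against the mean level of the 2 libraries (CPM, log axis); red and blue points are Ndufa4 and genes named by size, dashed lines mark 1.5-fold, and black rings mark genes with over 50% of their KO UMIs in 1 cell. Ppfia4 at 5.63 and Apol7c at 2.72 carry no ring, while Camp, Ngp, Ltf, Lcn2, S100a8 and S100a9 do.

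Several of the highest genes came from 1 barcode. Camp, a granule antimicrobial peptide of neutrophils, had 1055 UMIs in KO members, 1012 of them in 1 cell, and 8 UMIs in WT members. The same cell held 867 of 934 UMIs of Ngp, 306 of 343 of Ltf, 392 of 429 of Lcn2, 3578 of 4108 of S100a8 and 3343 of 3936 of S100a9. It had 40431 UMIs, the most of any KO member, with 102 of H2-Ab1, and Scrublet called it a doublet. Without it S100a8 had 283 CPM in KO and 439 CPM in WT members (−0.63 [−0.77, −0.49]), in place of a ratio of 2.29, and S100a9 likewise stood at −0.87 in place of 1.83. Ngp, another granule protein, kept a ratio of 2.72 and Camp one of 3.78, from 67 KO and 26 WT UMIs and from 43 and 8 UMIs. The neutrophil marker list summed to 5539 CPM in KO with that cell, 787 CPM without it and 1221 CPM in WT members. In all, 18 measured genes had over 50% of their KO UMIs in 1 cell, and 10 of them were among the 411 higher genes.

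**Figure D5:**
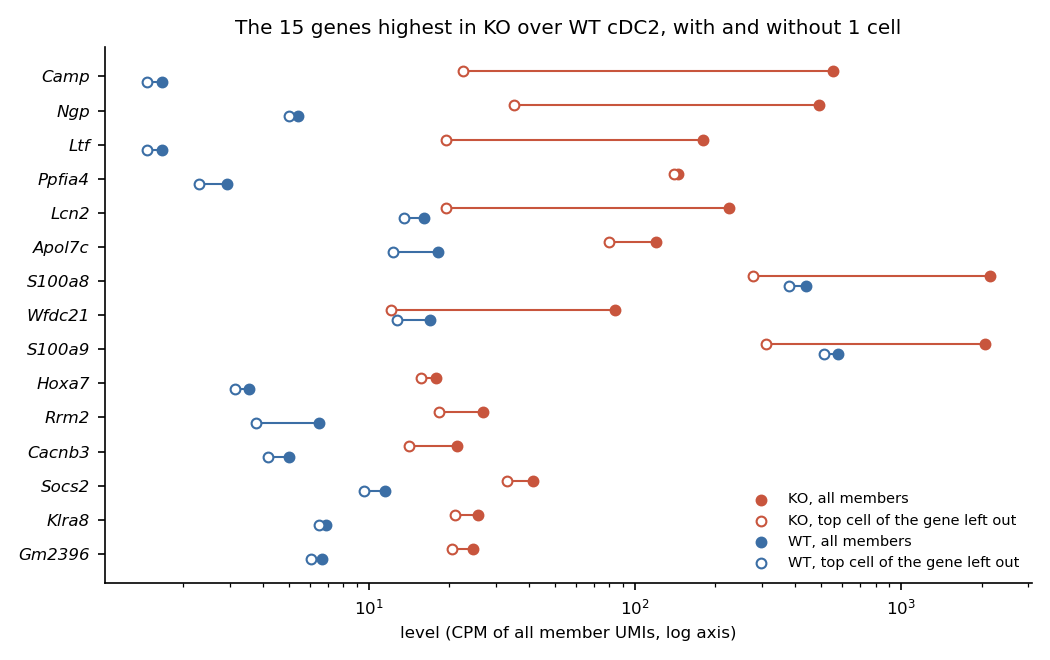
Levels (CPM, log axis) of the 15 genes highest in KO over WT, KO points above WT points for each gene; filled points use all members, and open points leave out the cell with the most UMIs of that gene in each library. Camp, Ngp, Ltf, Lcn2, S100a8, Wfdc21 and S100a9 move far to the left in KO, while Ppfia4 hardly moves.

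Markers of other cells were measured beside these values. Of 10 classical monocyte markers, 1 was past 1.5-fold higher and 2 lower, and the list summed to 2490 CPM in KO and 2708 CPM in WT members. Vcan, a proteoglycan, had 30 UMIs in KO and 273 UMIs in WT members (−1.86 [−2.45, −1.31]), while Ly6c2 had 212 CPM in KO and 173 CPM in WT members (0.29 [0.11, 0.46]). Of 9 non-classical monocyte markers, 4 were lower and 1 higher, with a median of −0.48. Ace, angiotensin-converting enzyme, had 148 CPM in KO and 248 CPM in WT members (−0.74 [−0.94, −0.56]), and −0.43 with cells thinned to 2000 UMIs. These cells were also fewer in the KO library, as given above, and their part in the lower genes was not tested. Of 6 measured red pulp macrophage markers, 4 were higher and none lower. Vcam1, an adhesion molecule, had 30.9 CPM in KO and 12.1 CPM in WT members (1.35 [0.80, 1.90]), and Hmox1, the haem-degrading enzyme, 79.0 and 44.4 CPM (0.83 [0.52, 1.14]), with C1qa at 0 by rule. Of 4 measured NK cell markers, Gzma was past 1.5-fold higher (1.33) and none was lower. NK cells were more common in the KO library, and their part in this value was not tested. The NK cell list summed to 412 CPM in KO and 370 CPM in WT members, the B cell list to 42.9 and 36.3 CPM, and the T cell list, with no measured gene, to 17.8 and 8.13 CPM.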

How the data were processed

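The authors deposited 10x count matrices of UMIs per gene and barcode, one per library, made with Cell Ranger 6.0.0 per the file headers; the submitters' processing notes name Cell Ranger 3.1, Seurat 3.1.4 and the builds mm10 and GRCm38. From those counts, barcodes were filtered and members chosen by the rule in the text, with no ambient RNA correction. The members, the gene lists (35 of genes by role, 17 of markers) and the tests were chosen with earlier results of these data known. UMIs of members were summed per library and divided by their total (CPM). Ratios carry exact conditional binomial intervals, levels exact Poisson, shares Clopper-Pearson and differences of shares Newcombe intervals, all at 95%. Genes named were up to 8 per list by size of ratio, the 15 highest and 15 lowest by the interval bound nearest 0, Ndufa4, and the 20 class genes; Ig, TCR and haemoglobin genes were left out of the 15. Some genes the rule names are not reported here. Alternatives changed the thresholds, depth, weights, scaling, doublets and gene minimum. The calculations were tested on simulated data. Python 3.11.15, numpy 2.4.6, scipy 1.17.1, pandas 2.3.3, scanpy 1.11.5 and matplotlib 3.10.9 were used. Promoter sequences are RefSeq's (GRCm38.p6), and gene positions are GENCODE's (GRCm38).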

Additional observations from a re-analysis of the deposited data

Results flagged for a closer look

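The 18 genes below were past 1.5-fold in opposite directions in the spleen members and in the tumour cells taken by the same rule, which is what drew attention to them. Each value is a log2 ratio of KO over WT, first in the spleen and then in the tumour. The titles name CD45 and CD11b for the spleen and CD45 alone for the tumour, so the sorts differed. The difference between the organs was not tested.

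Lower in the spleen and higher in the tumour were 11 of them. Fos, a subunit of AP-1, stood at −0.61 and 2.19, and Atf3, a stress-induced factor, at −0.80 and 2.33. Socs3, the feedback inhibitor, stood at −1.39 and 1.35, Il1b at −0.67 and 1.22 and Ier3 at −1.63 and 0.76. Nr4a1, an orphan nuclear receptor, stood at −0.62 and 1.34 and Klf2, a factor of quiescence, at −0.68 and 1.53. Nfil3 stood at −0.90 and 1.28, Prdm1, which encodes Blimp-1, at −0.72 and 1.13, Clec4e at −1.98 and 1.11 and Gsr, glutathione reductase, at −0.59 and 0.64.

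The reverse order was found for 7 genes. Apol7c stood at 2.72 in the spleen and −4.23 in the tumour, H2-Eb2 at 0.84 and −1.17, and Pglyrp1, a peptidoglycan-binding protein, at 0.68 and −0.72. Hist1h1b stood at 1.13 and −3.05 and Stmn1, a microtubule regulator of dividing cells, at 0.73 and −1.07. S100a8 stood at 2.29 and −4.32 and S100a9 at 1.83 and −3.68, and without 1 spleen cell of the KO library their spleen ratios were −0.63 and −0.87. Their tumour ratios came from few UMIs, 2 in KO and 54 in WT for S100a8 and 3 and 52 for S100a9. The tumour interval of Pglyrp1 came near 0, at [−1.43, −0.04].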

How the results depend on the processing

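No paired analysis was possible because each group was 1 library and no test was made. Without the top cell of each gene, 321 genes were higher and 634 lower. With neutrophils out of the denominator the share difference was −3.49 points, and no other alternative moved it beyond its interval. The count of genes at least 1.5-fold higher was 144 (293 lower) with cells thinned to 2000 UMIs, 764 and 92 with minimums of 20 and 200 UMIs per gene, 90 at 2-fold and 55 with the interval wholly past 1.5-fold. The lower count was 708, 125, 97 and 38 under the last 4 of these. Members with no UMI of 8 genes of other cells, 4 KO and 19 WT, gave 97 higher and 318 lower genes and list medians of −0.71 for type I, −0.36 for type II and −0.36 for MHC class II. Otherwise the type I median was −0.054 with Flt3 and Cd209a at least 2, −0.013 and −0.054 with H2-Ab1 at least 5 and 20, −0.078 thinned, 0.058 centred on all genes, −0.028 at 200 UMIs, 0.00071 without the top cell of each gene and −0.062 in Cd209a-positive members. The type II median was 0.050 with the sum at least 2 and −0.045 in Cd209a-positive members. The MHC class II median was 0.035 with the sum at least 2, 0.20 and 0.18 with H2-Ab1 at least 5 and 20, 0.11 at 5% mitochondrial UMIs, 0.065 thinned, 0.10 with equal weight per cell, 0.16 centred, 0.15 without the granule-rich cell and 0.053 in Cd209a-positive members.

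Among 116 named genes past 1.5-fold, 62 were past it in the same direction under every setting that gave them a value, and 10 changed sign under at least 1. A gene needed 50 UMIs to have a value in a setting: 12 had one under all 14 settings and the others under 6 or more. Cxcl10 was −0.90 with H2-Ab1 at least 5, and Apoe was −0.25 with H2-Ab1 at least 20. Without Scrublet doublets S100a8 was −0.47, Wfdc21 −0.40, S100a9 −0.55 and Chil3 −0.72. Without the top cell of each gene they were −0.44, −0.080, −0.73 and −0.66, and without the granule-rich cell −0.63, −0.46, −0.87 and −0.87. In Cd209a-positive members Cxcr2 was 0.076, Ifi205 −0.50, Cxcl16 −0.13, Dusp2 −0.084 and Apoe −0.48. The last 3 settings were chosen after seeing the data, and the cause of these changes was not tested, except that 1 cell held most UMIs of the granule genes. The limits are 1 pooled library per genotype, 185 KO cells, and genes of few UMIs, whose intervals are wide.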

Other observations

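Metabolic and lysosomal genes of the members were mostly close between the genotypes. Of 22 measured glycolysis and hypoxia genes, 1 was past 1.5-fold higher in KO and 2 lower. Slc2a3, a high-affinity glucose transporter, had 38.2 CPM in KO and 22.9 CPM in WT members (log2 0.74 [0.29, 1.18]; 0.54 with equal weight per cell), while Slc2a1, the other main transporter, had 18 UMIs in KO and 79 UMIs in WT members (−0.81 [−1.63, −0.05]) and Eno1, an enolase that has near-identical copies, 119.8 and 188 CPM (−0.65). Of 21 stress and redox genes, 2 were higher and 3 lower. Slc7a11, the cystine transporter, had 41 UMIs in KO and 63 UMIs in WT members (0.71 [0.10, 1.30]), and Nupr1, a stress-induced chromatin protein, 40.8 CPM in KO and 63.4 CPM in WT members (−0.64 [−1.01, −0.27]). None of 17 measured genes of the TCA cycle and none of 5 of the kynurenine pathway was past 1.5-fold, and Kynu, kynureninase, had 57.6 CPM in KO and 40.3 CPM in WT members (0.52 [0.16, 0.86]).

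Of 23 lysosome and protease genes, 1 was higher and 1 lower. Cd63, a tetraspanin of late endosomes, had 30.3 CPM in KO and 16.1 CPM in WT members (0.92 [0.40, 1.43]), and Lgmn, an asparaginyl endopeptidase, 129.8 and 198 CPM (−0.61 [−0.82, −0.41]), but −0.47 for Lgmn with cells thinned to 2000 UMIs. Of 22 genes of cholesterol synthesis and lipid handling, Apoe was the 1 higher, at 369 CPM in KO and 242 CPM in WT members (0.61), but −0.25 with H2-Ab1 at least 20 and −0.48 in Cd209a-positive members, and Cd36 was the 1 lower. Of 13 Fc receptor and complement genes, 1 was higher and 2 lower, among them C5ar1, a complement receptor, with 6 UMIs in KO and 46 UMIs in WT members (−1.61 [−3.13, −0.38]). Of 16 genes of interferon receptors and their signalling, Socs3 was the 1 past 1.5-fold.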
